A study of Mus musculus with 6 samples.

Results

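The isocitrate dehydrogenases are the enzymes that turn isocitrate into 2-oxoglutarate. The 5 genes of the family, Idh1, Idh2, Idh3a, Idh3b and Idh3g, were looked up by symbol among the 13069 genes of the deposited expression table, and all 5 were present. RNA was compared between 3 libraries of a mouse glioblastoma (GBM) neurosphere line labelled ATRX knockout (ATRX KO, line code C54B) and 3 libraries of a line labelled ATRX wild type (ATRX WT, line code C39E). Both tumours were started in newborn mice by Sleeping Beauty transposition, a way of inserting plasmids into the genome, and both carried overexpressed NRAS and a hairpin that lowers p53. The protocol describes the loss of ATRX as a further plasmid with a hairpin against ATRX, whereas the genotype label says knockout, so which of them was used is not known. The mice were C57BL/6 or FVB, and the strain behind each line is not stated. Both lines were kept as neurospheres in medium for neural stem cells that held the supplements N-2 and B-27 and the growth factors EGF and FGF. The libraries of a genotype share a line code, so genotype, line, strain and culture cannot be told apart, and p-values measure the spread between libraries, which may be technical.

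Isocitrate dehydrogenases come in 2 kinds. The NADP-dependent enzymes work as homodimers and make NADPH, IDH1 in the cytosol and peroxisomes and IDH2 in mitochondria. The NAD-dependent enzyme of the citric acid cycle is a complex of a catalytic alpha subunit (Idh3a) with the regulatory beta (Idh3b) and gamma (Idh3g) subunits. In human gliomas, mutations of IDH1 or IDH2 turn the enzyme to making 2-hydroxyglutarate, and in astrocytomas they often occur together with loss of ATRX. The table holds transcript levels only and says nothing of the sequence of these genes in either line.

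Summed over the table, libraries held 22177228 to 32477269 reads in ATRX KO, against 34966108 to 38039847 reads in ATRX WT. Levels are RPKM, reads scaled to gene length and library size, so that genes can be compared with each other. Atrx, the targeted gene, had 14.1, 16.6 and 17.1 RPKM in ATRX KO, against 22.3, 22.7 and 21.6 RPKM in ATRX WT, a log2 difference of -0.48 ± 0.07 (SE, limma adjusted p = 0.00013). The lines differed widely: 10925 of 12201 tested genes passed the threshold (89.5%), and the Pearson correlation of log2 RPKM across genes was 0.592 to 0.599 between genotypes, against 0.997 to 0.998 within them. Genes are not independent replicates. The markers of the labelled neural origin were mostly lower in ATRX KO. Marker levels are given as sums over every marker in the table, with calls from the fit without a filter on low values, since the filter lets a marker in through the line where it is high and so fixes its direction. The 7 neural stem markers summed to 55.3 to 55.9 RPKM in ATRX KO, against 2926 to 2990 RPKM in ATRX WT, and all 7 were called lower. Fabp7 among them had 4 reads over the ATRX KO libraries, against 247523 in ATRX WT. The 8 oligodendrocyte lineage markers summed to 41.3 to 44.9 RPKM in ATRX KO, against 356 to 362 RPKM in ATRX WT. Of these 8, 6 were called lower, with Olig1 and Bcas1 at 0 reads in ATRX KO, and 2, Pdgfra and Cspg4, higher, which were also the only 2 above log2 RPKM 1 in every library. The 3 astrocyte markers summed to 29.0 to 33.4 RPKM in ATRX KO and 355 to 363 RPKM in ATRX WT, and the 6 neuron markers to 7.07 to 7.57 RPKM in ATRX KO and 167 to 174 RPKM in ATRX WT. All of these were called lower, although only 1 astrocyte marker and 2 neuron markers averaged log2 RPKM 0 or more in ATRX KO. The 9 mesenchymal markers summed to 1203 to 1377 RPKM in ATRX KO and 2.74 to 3.02 RPKM in ATRX WT, 8 called higher and 1, Thy1, lower. The 2 microglial markers summed to 30.6 to 35.1 RPKM in ATRX KO and 5.596 to 6.358 RPKM in ATRX WT, and both were called higher. The 4 endothelial markers summed to 14.6 to 16.6 RPKM in ATRX KO and 2.15 to 2.67 RPKM in ATRX WT, with 2 called higher, 1 lower and 1 not called. Some listed markers were not among the genes of the table. These were Gfap, Aqp4 and S100b of the astrocyte list, and Aif1, Ptprc, Cx3cr1, Itgam and Csf1r of the microglial list. Sox10 of the oligodendrocyte list, Rbfox3 of the neuron list, and Pecam1 and Tek of the endothelial list were also absent. These sums moved with the genotype in every library, and their part in the results below was not tested. In bulk RNA, fewer cells of a type and less RNA per cell cannot be told apart.

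Of the 5 isocitrate dehydrogenases, Idh1 and Idh3a fell, Idh2 rose, and Idh3b and Idh3g did not pass the test. With 89.5% of all tested genes called, 3 of 5 is no higher a share than the rest of the table had. The 3 that were called had levels that did not overlap between the genotypes, as was the case for 90.5% of tested genes. Idh1 and Idh2 were also past a log2 difference of 1, a size at which 19.6% of tested genes fell and 17.2% rose. By size, 15.8% of tested genes had an absolute log2 difference at least as large as that of Idh1, 30.1% one at least as large as that of Idh2 and 49.6% one at least as large as that of Idh3a. The differences of Idh3b and Idh3g stood at the other end, since only 1.86% of tested genes had a smaller absolute difference than Idh3b and 3.44% a smaller one than Idh3g.

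**Figure D1:**
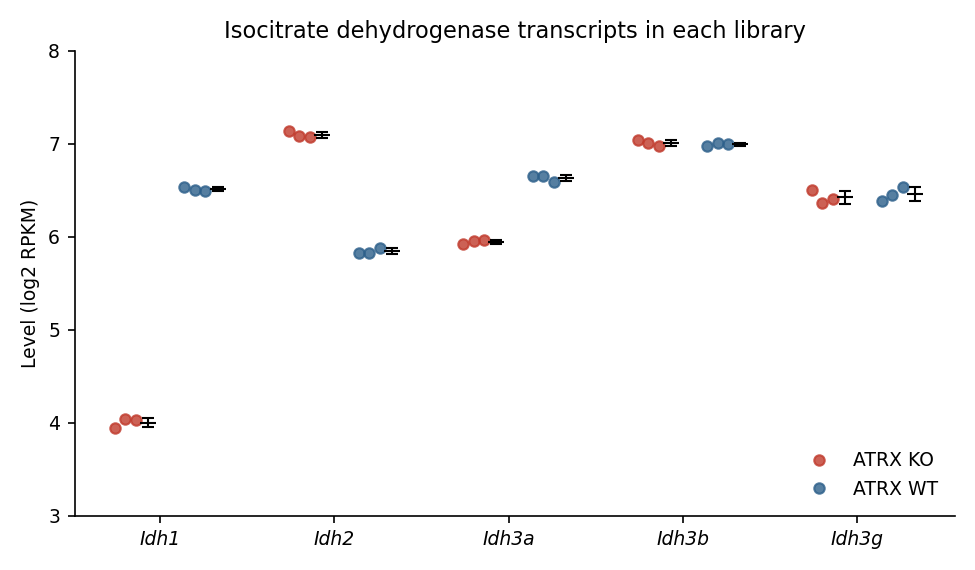
Level of each isocitrate dehydrogenase in each library, in log2 RPKM on the vertical axis. Points are libraries, ATRX KO in red left of ATRX WT in blue, and black marks give the mean and SD over 3 libraries. Idh1 lies at 4.00 in ATRX KO and 6.51 in ATRX WT, Idh2 at 7.10 in ATRX KO and 5.84 in ATRX WT, and Idh3a at 5.95 in ATRX KO and 6.63 in ATRX WT, while the points of Idh3b and Idh3g overlap.

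Idh1, the NADP-dependent enzyme of the cytosol and peroxisomes, is encoded on the minus strand at chr1:65158616-65186500 (GRCm38). Its level was 15.4, 16.4 and 16.3 RPKM in ATRX KO, against 92.6, 90.5 and 90.2 RPKM in ATRX WT. All 3 ATRX KO libraries were far below all 3 ATRX WT libraries. Idh1 averaged 16.02 ± 0.553 RPKM in ATRX KO and 91.1 ± 1.31 RPKM in ATRX WT (SD, n = 3 each), which puts ATRX KO at 17.6% of ATRX WT. The log2 difference was -2.51 (SE 0.03, 95% interval -2.58 to -2.43, limma adjusted p = 2.8e-11), and 1150 of the tested genes (9.43%) had a difference at least as low. These values rest on 822 to 1133 reads per ATRX KO library, against 8469 to 8958 per ATRX WT library, with a gene length of 2438 nt. By level, 39.96% of all 13069 genes in the table lay above Idh1 in ATRX KO and 5.72% in ATRX WT.

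The start of Idh1 faces that of Pikfyve, a lipid kinase that makes a phosphoinositide of endosomes. Both genes read outwards from a stretch of 182 bases between their starts in GENCODE M21, at chr1:65186501-65186682. It is printed because both genes begin at its ends while only Idh1 passed the test. It is given 5′ to 3′ on the strand of Idh1, from RefSeq (GRCm38.p6), with GC boxes (GGGCGG or CCGCCC) and CCAAT boxes (CCAAT or ATTGG) in capitals, searched on both strands.
Idh1 and Pikfyve: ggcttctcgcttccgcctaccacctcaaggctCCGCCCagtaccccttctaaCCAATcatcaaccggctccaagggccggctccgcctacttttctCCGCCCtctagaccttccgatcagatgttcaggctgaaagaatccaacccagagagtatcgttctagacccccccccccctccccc
The stretch holds 2 GC boxes, 1 CCAAT box and 9 CpG, and 59.9% of its bases are G or C. Among 32851 RefSeq windows of the same length just before a start, 30.3% held a GC box and 27.6% a CCAAT box, and the median was 4 CpG. RefSeq also gives Idh1 another start inside the gene, with a window at chr1:65179143-65179392 that holds 22 CpG. Levels per gene do not tell the starts of Idh1 apart. Pikfyve had 5.97, 6.25 and 6.49 RPKM in ATRX KO, against 6.24, 6.56 and 6.19 RPKM in ATRX WT. Its groups overlapped, and it did not pass the test (log2 difference -0.02, SE 0.05, 95% interval -0.14 to 0.10, limma adjusted p = 0.7), although with the reads in the table as library size it was called lower (-0.22, adjusted p = 0.0035). Within a library, the log2 level of Idh1 minus that of Pikfyve was 1.36 ± 0.03 in ATRX KO and 3.85 ± 0.05 in ATRX WT (SD, n = 3 each).

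Idh2, the mitochondrial NADP-dependent enzyme, lies on the minus strand at chr7:80094846-80115392. Its level was 141, 135 and 135 RPKM in ATRX KO, against 56.6, 56.8 and 58.9 RPKM in ATRX WT. Every ATRX KO library was above every ATRX WT library, opposite to Idh1. Idh2 averaged 137 ± 3.24 RPKM in ATRX KO and 57.4 ± 1.25 RPKM in ATRX WT (SD, n = 3 each), a level 2.38 times as high. The log2 difference was 1.25 (SE 0.03, 95% interval 1.19 to 1.32, limma adjusted p = 6.5e-10), and 1685 of the tested genes (13.8%) had one at least as high. The counts behind it were 4757 to 7238 reads in ATRX KO, against 3612 to 3970 in ATRX WT, with a gene length of 1702 nt. Idh2 stood among the most abundant transcripts in both lines. Of all 13069 genes in the table, 4.01% lay above it in ATRX KO and 10.4% in ATRX WT.

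The pair exchanged places, while its summed level differed little. Idh1 and Idh2 together had 156, 152 and 151 RPKM in ATRX KO, against 149, 147 and 149 RPKM in ATRX WT. The means were 152.9 ± 2.69 RPKM in ATRX KO and 148.5 ± 1.05 RPKM in ATRX WT (SD, n = 3 each), or 102.9% of the ATRX WT sum. The ranges of the sums were close and did not overlap. This near equality depends on the library size: with the reads in the table, the sums were 143 ± 2.19 RPKM in ATRX KO and 159 ± 1.52 RPKM in ATRX WT, or 89.8%. The share of Idh1 in the sum does not depend on it. That share was 9.86%, 10.8% and 10.8% in ATRX KO, against 62.1%, 61.4% and 60.5% in ATRX WT. It averaged 10.5 ± 0.538% in ATRX KO, against 61.3 ± 0.782% in ATRX WT (SD, n = 3 each), and the difference was -50.8 percentage points. Within a library, the log2 level of Idh1 minus that of Idh2 was -3.19, -3.04 and -3.05 in ATRX KO, against 0.71, 0.67 and 0.62 in ATRX WT. Idh2 was thus 8.54 times as high as Idh1 in ATRX KO, whereas Idh1 was 1.59 times as high as Idh2 in ATRX WT. The difference between genotypes in this log2 ratio was -3.76. In the exact two-sided permutation test over libraries both measures gave p = 0.1, the smallest that 3 libraries against 3 allow, and 0.12 after Benjamini-Hochberg adjustment over 6 within-library measures.

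**Figure D2:**
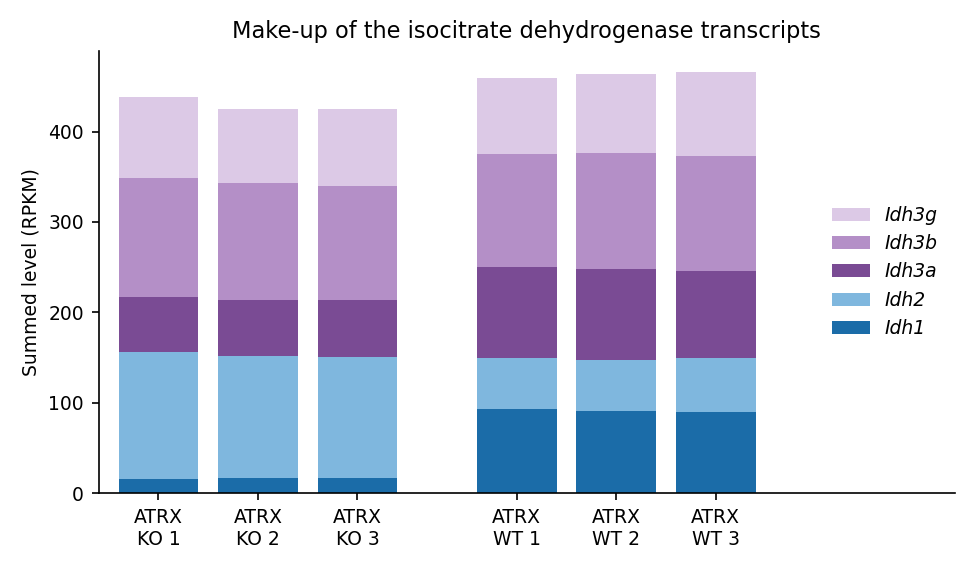
Summed level of the 5 genes in each library, in RPKM on the vertical axis, with ATRX KO libraries left of ATRX WT libraries. Blue blocks are the NADP-dependent Idh1 and Idh2, and purple blocks are the NAD-dependent subunits. The blue part has nearly the same height in both lines, 152.9 RPKM on average in ATRX KO and 148.5 RPKM in ATRX WT, but Idh1 makes up 10.5% of it in ATRX KO and 61.3% in ATRX WT.

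Idh3a, the catalytic subunit of the NAD-dependent enzyme, lies on the plus strand at chr9:54586334-54604661. Its level was 60.5, 62.1 and 62.3 RPKM in ATRX KO, against 100.5, 100.6 and 96.3 RPKM in ATRX WT. All ATRX KO libraries were below all ATRX WT libraries. Idh3a averaged 61.6 ± 0.966 RPKM in ATRX KO and 99.1 ± 2.46 RPKM in ATRX WT (SD, n = 3 each), or 62.2% of the ATRX WT level. The log2 difference was -0.69 (SE 0.03, 95% interval -0.75 to -0.62, limma adjusted p = 2.4e-08), which is close to the median absolute log2 difference of all tested genes, 0.68. It rests on 3104 to 4400 reads in ATRX KO, against 9061 to 9819 in ATRX WT.

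Idh3b, the regulatory beta subunit, lies on the minus strand at chr2:130279309-130284547. Its level was 132, 129 and 126 RPKM in ATRX KO, against 125, 129 and 128 RPKM in ATRX WT. The libraries of the 2 lines were interleaved. The means were 128.9 ± 2.83 RPKM in ATRX KO and 127 ± 1.67 RPKM in ATRX WT (SD, n = 3 each), and the log2 difference was 0.02 (SE 0.03, 95% interval -0.04 to 0.08, limma adjusted p = 0.53). The last 5 bases of the gene overlap the end of Nop56 on the opposite strand, a nucleolar protein of ribosome assembly that rose to 203 ± 2.35 RPKM in ATRX KO, against 92.5 ± 2.01 RPKM in ATRX WT (SD, n = 3 each). The library kit marks strand, and whether the counting used it is not given in the sources used here.

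Idh3g, the regulatory gamma subunit, lies on the minus strand of the X chromosome at chrX:73778963-73786897. Its level was 90.4, 82.0 and 85.1 RPKM in ATRX KO, against 83.7, 87.2 and 92.9 RPKM in ATRX WT. The ranges overlapped almost fully. Idh3g averaged 85.8 ± 4.27 RPKM in ATRX KO and 87.9 ± 4.62 RPKM in ATRX WT (SD, n = 3 each), the widest spread of the 5 genes on the log2 scale, with a log2 difference of -0.03 (SE 0.05, 95% interval -0.14 to 0.07, limma adjusted p = 0.50). The results for both regulatory subunits depend on the scaling of the libraries. With quantile normalization Idh3b was called lower at a log2 difference of -0.22 (limma adjusted p = 4.1e-05) and Idh3g at -0.25 (0.00051). With the reads in the table as library size, which moved the median of all genes by -0.20, Idh3b was called lower at -0.18 (limma adjusted p = 0.00016) and Idh3g at -0.23 (0.0012). Taken relative to the median of all genes, Idh3b was at 0.04 and Idh3g at -0.01 under both the deposited scaling and this one, but Idh3b at -0.18 and Idh3g at -0.21 with quantile normalization.

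Idh3g also begins head to head with another gene, Ssr4, a subunit of the translocon-associated protein complex of the endoplasmic reticulum. The 125 bases between the outermost starts of this pair, at chrX:73786898-73787022, are printed for comparison with those of Idh1 and Pikfyve, since here the partner and not the isocitrate dehydrogenase rose. They are given 5′ to 3′ on the strand of Idh3g, from RefSeq (GRCm38.p6), and hold none of the letters marked by capitals above.
Idh3g and Ssr4: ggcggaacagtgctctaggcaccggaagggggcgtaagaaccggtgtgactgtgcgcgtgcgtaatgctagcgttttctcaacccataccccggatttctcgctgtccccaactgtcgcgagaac
The stretch holds 12 CpG, against a median of 3 among the windows of that length, and 18.3% of those windows had as many. A GC box stood in 26.9% of the windows and a CCAAT box in 21.9%. Ssr4 had 126, 120 and 124 RPKM in ATRX KO, against 85.1, 83.2 and 84.8 RPKM in ATRX WT. Its groups did not overlap, and its log2 difference was 0.55 (SE 0.03, limma adjusted p = 8.8e-08), with a range of 0.33 to 0.57 over the alternative settings. Within a library, the log2 level of Idh3g minus that of Ssr4 was -0.53 ± 0.04 in ATRX KO and 0.06 ± 0.08 in ATRX WT (SD, n = 3 each).

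**Figure D3:**
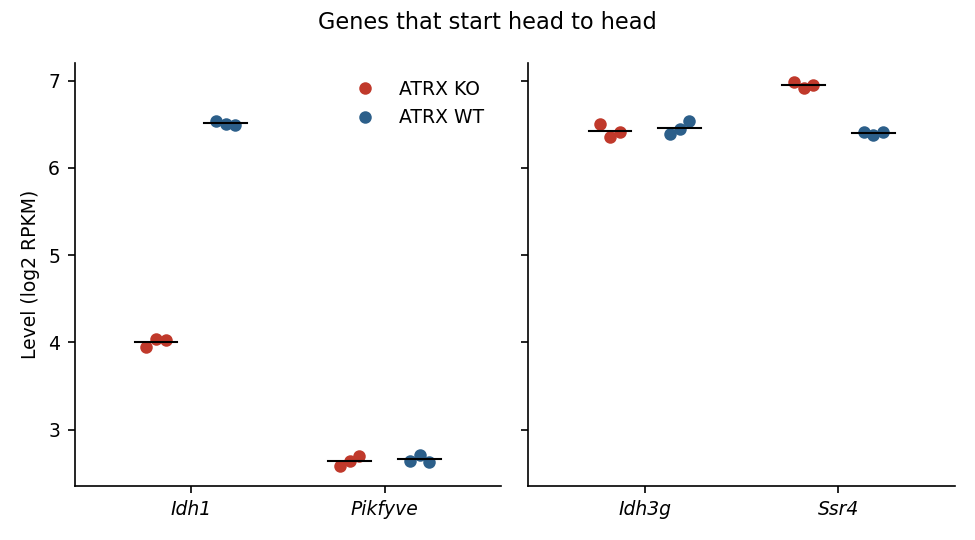
Levels of Idh1 and Pikfyve (left) and of Idh3g and Ssr4 (right), which begin head to head, in log2 RPKM on the vertical axis. Points are libraries, ATRX KO in red left of ATRX WT in blue, and lines are means of 3 libraries. Idh1 lies 2.51 lower in ATRX KO beside overlapping points of Pikfyve, and Ssr4 lies 0.55 higher beside overlapping points of Idh3g.

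Within the NAD-dependent enzyme, the catalytic subunit was lower relative to its regulatory partners in every ATRX KO library than in any ATRX WT library. The log2 level of Idh3a minus that of Idh3b was -1.06 ± 0.05 in ATRX KO, against -0.36 ± 0.04 in ATRX WT, which differ by -0.70. The log2 level of Idh3a minus that of Idh3g was -0.48 ± 0.09 in ATRX KO, against 0.17 ± 0.11 in ATRX WT, which differ by -0.65. Neither measure overlapped between genotypes, and each had exact two-sided permutation p = 0.1, the smallest possible. The ratio of the regulatory subunits did overlap: Idh3b minus Idh3g was 0.59 ± 0.06 in ATRX KO and 0.53 ± 0.07 in ATRX WT (SD, n = 3 each, exact two-sided permutation p = 0.5). The 3 subunits summed to 283, 273 and 273 RPKM in ATRX KO, against 310, 316 and 317 RPKM in ATRX WT, or 87.9% of the ATRX WT mean. This percentage depends on the library size. With the reads in the table, the sums were 258 ± 4.52 RPKM in ATRX KO and 336 ± 3.85 RPKM in ATRX WT (SD, n = 3 each), or 76.7%. As a share of all 5 genes, the NADP-dependent enzymes made up 35.6%, 35.7% and 35.6% in ATRX KO, against 32.5%, 31.8% and 32.0% in ATRX WT, again without overlap and with exact two-sided permutation p = 0.1.

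By level per length, the 5 genes were ordered differently in the 2 lines. In ATRX KO the order was Idh2, Idh3b, Idh3g, Idh3a and Idh1, and no neighbours in it overlapped. In ATRX WT it was Idh3b, Idh3a, Idh1, Idh3g and Idh2, and only Idh1 and Idh3g overlapped. Idh2 was thus first of the 5 in ATRX KO and last in ATRX WT. No stretch of 42 nt, the read length, in the coding transcripts of the 5 genes stood in a transcript of another gene in GENCODE M21.

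**Figure D4:**
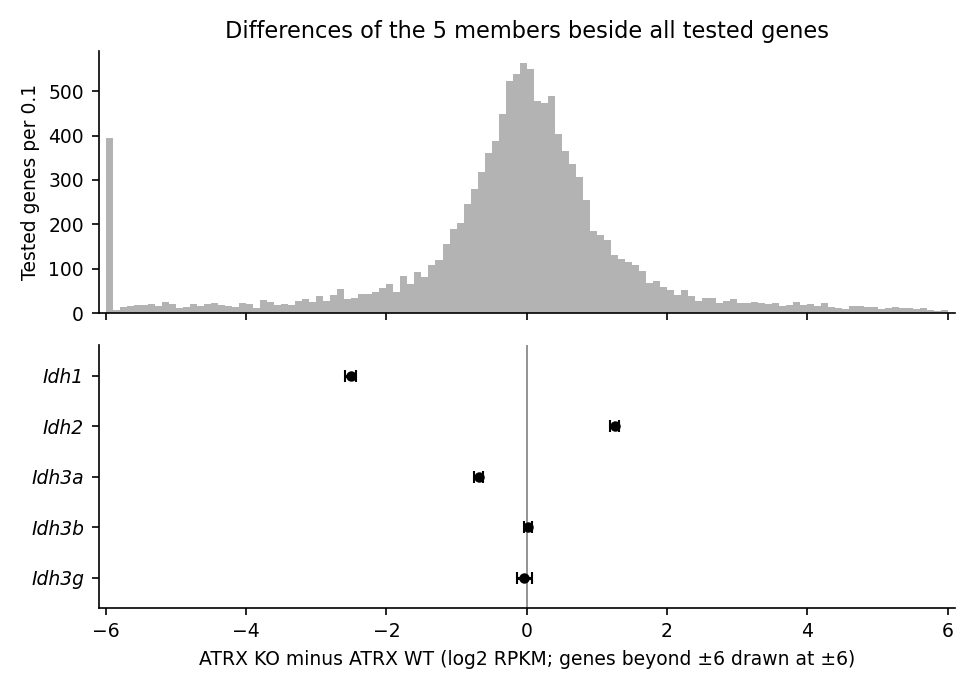
Lower panel: log2 difference in RPKM, ATRX KO minus ATRX WT, of each isocitrate dehydrogenase with its 95% interval. Upper panel: number of tested genes per 0.1 log2 units on the same axis, with genes beyond the limits drawn at them. Idh1 at -2.51 and Idh2 at 1.25 lie to either side of the bulk of genes, Idh3a at -0.69 lies at its shoulder, and Idh3b at 0.02 and Idh3g at -0.03 lie near its middle.

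The genes whose centred log2 levels over the 6 libraries were most like those of each member were picked by the smallest root mean square (RMS) distance. For Idh1 these were Fkbp14 (RMS 0.0215), Phka1 (0.0261) and Vav3 (0.0324), with log2 differences of -2.49, -2.52 and -2.56. For Idh2 they were Ywhag (0.0102), Aars (0.0176) and Snd1 (0.0183), with differences of 1.26, 1.27 and 1.27. Idh3a was nearest to Galnt11 (0.0148), Bub1 (0.0157) and Tnrc6a (0.0196), Idh3b to Shmt1 (0.0121), Saraf (0.0154) and Atp6v1b2 (0.0161), and Idh3g to Fiz1 (0.0206), Raly (0.0223) and Scaf1 (0.0227). These 6 values form 2 groups of 3, so the measure is led by the difference between the lines.

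The chromosomal surroundings of the members moved in both directions. Of 8 tested genes that start within 1 Mb of Idh1, 3 rose and 4 fell (median log2 difference -0.13), and of 30 around Idh2, 14 rose and 11 fell (median 0.10). Around Idh3a 3 of 15 rose and 11 fell (median -0.29), around Idh3b 13 of 29 rose and 13 fell (median 0.02), and around Idh3g 15 of 36 rose and 14 fell (median 0.04). Of all tested genes 43.6% rose and 45.9% fell, and their median log2 difference was -0.02. The gene on the far side of Idh1, Plekhm3, rose by a log2 difference of 0.87, opposite to Idh1. Idh2 stood between Zfp710, which fell (-0.90), and Sema4b, which rose (1.77). Idh3a stood between Cib2 (-2.87) and the fatty acyl-CoA synthetase gene Acsbg1 (-5.18), which both fell further than Idh3a.

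The genes that work around these enzymes were grouped by their reactions. The counts below stand beside 89.5% of all tested genes called, 43.6% higher and 45.9% lower, and no group was tested against the rest. In the rest of the citric acid cycle all 14 genes passed the test, 5 higher and 9 lower in ATRX KO (median log2 difference -0.28). None of them differed by more than 1 either way. The share called was 100%, beside 89.5% of all tested genes, and the difference between these shares was not tested. Those that rose included Dld (0.67), a subunit shared by several 2-oxoacid dehydrogenase complexes, Sdhb (0.65), a subunit of succinate dehydrogenase, and Dlst (0.50). Those that fell included the succinate-CoA ligase subunits Suclg1 (-0.79) and Sucla2 (-0.62), fumarase Fh1 (-0.39) and citrate synthase Cs (-0.38). The difference of Idh3a (-0.69) lay within the range of the cycle, whereas those of Idh1 (-2.51) and Idh2 (1.25) lay outside it.

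Fatty acid synthesis in the cytosol uses citrate and NADPH. Of 10 tested genes of cytosolic citrate use and fatty acid synthesis, 9 fell while 0 rose and 1 was not called (median log2 difference -0.57). The share called, 90.0%, was near the 89.5% of all tested genes, and 45.9% of all tested genes fell. Without the filter on low values 11 genes were tested and 1 was called higher, Acacb, with 0.394 ± 0.0301 RPKM in ATRX KO and 0.0784 ± 0.0171 RPKM in ATRX WT (SD, n = 3 each). The genes that fell furthest were stearoyl-CoA desaturases Scd1 (-1.35) and Scd2 (-1.24), fatty acid synthase Fasn (-1.25) and malic enzyme Me1 (-1.01). The mitochondrial citrate carrier Slc25a1 (-0.65) and ATP citrate lyase Acly (-0.34) fell less. The cytosolic aconitase Aco1, which makes the isocitrate for Idh1, did not pass the test and had 30.5 ± 1.32 RPKM in ATRX KO and 30.5 ± 0.201 RPKM in ATRX WT (SD, n = 3 each). It was called lower with the reads in the table as library size and with quantile normalization.

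Other genes of NADPH supply, with the NAD kinases that make its precursor NADP, moved both ways. Among the 14 that were tested, 8 rose while 5 fell and 1 was not called (median log2 difference 0.65). Of these, 13 averaged log2 RPKM 0 or more in ATRX KO and 14 in ATRX WT. Without the filter on low values 15 were tested, 8 higher, 6 lower and 1 without a call (median 0.43). The pentose phosphate gene Pgd (1.67), H6pd (3.83), which makes NADPH in the endoplasmic reticulum, NAD kinase Nadk (1.57) and the mitochondrial folate genes Mthfd2 (1.73) and Aldh1l2 (2.99) rose. Glucose-6-phosphate dehydrogenase G6pdx did not pass the test under the deposited scaling, with 63.6 ± 3.96 RPKM in ATRX KO and 63.6 ± 0.728 RPKM in ATRX WT (SD, n = 3 each), and was called lower under the other 2 scalings. The cytosolic folate gene Aldh1l1 fell by 10.12 on the log2 scale, with 37 reads over the ATRX KO libraries against 69357 in ATRX WT, and it is also among the astrocyte markers above. The mitochondrial transhydrogenase Nnt (-2.29), which makes NADPH from NADH, Mthfd2l (-0.48) and Me2 (-0.41) fell as well.

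Glutamine and glutamate are another source of 2-oxoglutarate, the product of the isocitrate dehydrogenases. Of 17 genes of these routes 12 rose while 4 fell and 1 was not called (median log2 difference 0.88), beside 43.6% of all tested genes that rose, and the difference from them was not tested. The glutamine carrier Slc1a5 rose most (3.22), to 177.5 ± 4.49 RPKM in ATRX KO against 19.0 ± 0.0827 RPKM in ATRX WT (SD, n = 3 each). The transaminases Bcat2 (2.19) and Got1 (1.66) and the aspartate-glutamate carrier Slc25a13 (1.78) rose too. Glutamine synthetase Glul (-2.65), which uses glutamate, the carrier Slc25a12 (-0.80) and the 2-oxoglutarate carrier Slc25a11 (-0.67) fell. With the reads in the table as library size, 11 of the 17 were higher, 5 lower and 1 without a call. With quantile normalization 12 were higher and 5 lower.

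The enzymes that make or remove 2-hydroxyglutarate were split, with 4 of 8 higher, 3 lower and 1 without a call (median log2 difference 0.01). D2hgdh, which removes the D form, rose by 0.76 but stayed low, at 1.51 ± 0.0968 RPKM in ATRX KO and 0.893 ± 0.0310 RPKM in ATRX WT (SD, n = 3 each). With the reads in the table as library size, 3 of the 8 were higher and 4 lower. Phgdh (1.44) and Ldha (0.98), which can make 2-hydroxyglutarate as a side reaction, rose, whereas Mdh1 (-1.27), Mdh2 (-0.29) and Ldhb (-1.86) fell.

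Among enzymes that use 2-oxoglutarate, counts were split in each class. Of 22 tested genes listed as DNA and histone demethylases or their relatives, 10 were higher, 7 lower and 5 without a call (median log2 difference 0.02). With the reads in the table as library size, 6 were higher and 12 lower. The demethylases Kdm4a (1.10) and Kdm6b (1.10) rose, as did Hspbap1 (2.11), which is in the list as a relative. Kdm2b (-0.95), Phf8 (-0.75) and Jmjd1c (-0.50) fell. These calls held under every setting in which the genes were tested. Of 16 protein hydroxylases 8 were higher and 7 lower (median 0.04), and 15 of the 16 averaged log2 RPKM 0 or more in ATRX KO, against 16 in ATRX WT. With the reads in the table as library size, 6 were higher and 8 lower. Leaving out 1 library at a time gave 12 to 15 called. The collagen enzymes P4ha2 (2.79), P4ha1 (1.74) and Plod2 (1.66) rose, and the oxygen sensor Egln1 (-1.16) and P4htm (-3.22) fell. The mesenchymal markers, with Col1a1 and Col3a1 among them, summed higher in the same libraries as these collagen enzymes, and their part was not tested. Of 10 RNA and DNA repair demethylases 5 rose and 2 fell (median 0.38), with Alkbh3 (1.46) highest and the RNA demethylase Alkbh5 (-0.62) lowest.

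Antioxidant enzymes, some of which draw on NADPH directly or through glutathione and thioredoxin, numbered 20 tested, of which 10 were higher, 7 lower and 3 without a call (median log2 difference 0.12), or 7 higher and 10 lower with quantile normalization. The peroxiredoxins Prdx1 (1.71), Prdx5 (1.86) and Prdx6 (1.78) and the quinone reductase Nqo1 (1.44) rose. Prdx2 (-0.88), catalase Cat (-0.43) and both subunits of the ligase that starts glutathione synthesis, Gclc (-0.60) and Gclm (-0.61), fell. Of 12 tested genes known to regulate isocitrate dehydrogenases 3 rose and 9 fell (median -0.31). The filter lets a gene in through the line where it is high, and only 10 of these averaged log2 RPKM 0 or more in ATRX KO, against 12 in ATRX WT. Without the filter on low values 14 were tested, 3 higher and 11 lower. With log2 RPKM of at least 1 in every library 10 were tested, 3 higher and 7 lower. Nfe2l2, which encodes the oxidant-responsive factor NRF2, rose by 1.19 and Foxo3 by 0.60. The sterol factor genes Srebf2 (0.38) and Srebf1 (-0.40) moved apart, and Scap, which escorts both proteins, fell (-0.71). The mitochondrial deacylases Sirt3 (-0.22), which activates IDH2, and Sirt5 (-1.44) fell, and the coactivator gene Ppargc1a had 4 reads over the ATRX KO libraries against 1264 in ATRX WT.

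**Figure D5:**
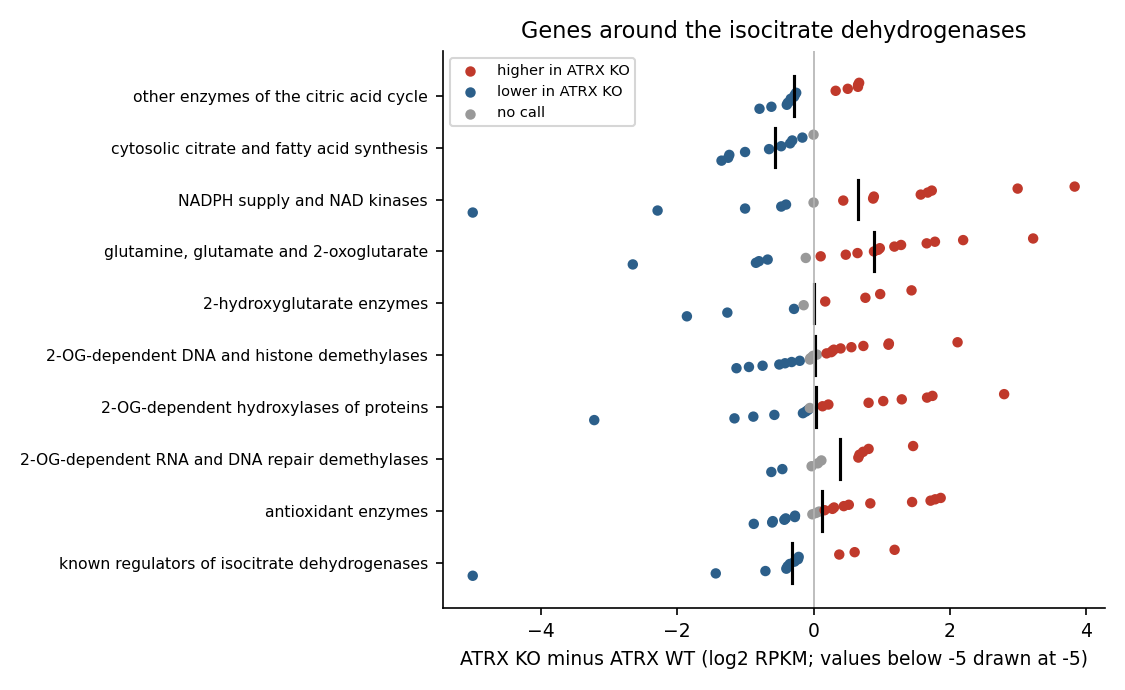
Log2 difference in RPKM, ATRX KO minus ATRX WT, of each tested gene in 10 groups of genes around the isocitrate dehydrogenases (2-OG, 2-oxoglutarate). Points are genes, red where higher, blue where lower and grey where without a call in limma, and black bars are medians. The cytosolic citrate group holds no red point and has a median of -0.57, and the glutamine group has the highest median, 0.88.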

How the data were processed

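RNA-seq of 3 ATRX KO and 3 ATRX WT libraries was analysed. Per the labels, the input was 4 ug of RNA, and a kit that keeps strand gave 42-nt read pairs. The submitters' processing notes name the aligner STAR 2.5.3a, the counter HTSeq 0.11.2, edgeR 3.20.9, Trim Galore and FastQC, and the builds mm9 and mm10 with no role. The authors deposited a single table of log2 RPKM values, made with a filter and a prior count that the sources used here do not describe. Its values stood on whole-read steps for 100% of genes (tolerance 0.0001 reads), with a prior count averaging 2, and the reads were recovered from these steps. The authors' library sizes were 0.932 to 0.935 of the summed reads in ATRX KO and 1.07 times them in ATRX WT.

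Genes that reached log2 RPKM 0 in 3 of the 6 libraries were tested (12201, with 868 left out) with limma 3.58.1 in R 4.3.3, using its moderated linear model with a trended prior. Tests were two-sided, p-values were adjusted over these genes by the Benjamini-Hochberg method, and an adjusted p under 0.05 is a call. The procedure was checked on simulated data. RPKM means and SDs are on the linear scale. Ratios of members within a library were compared by exact permutation over libraries. The alternatives were other filters, a pseudocount, quantile normalization, reads in the table as library size, no trend, a block and each library left out. Positions are from GENCODE M21, where 12598 symbols matched 1 gene. RefSeq windows before a start were found for 4 of the 5 members, and none was used for Idh3a.

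The members and gene lists were chosen with earlier results of these data known. Named genes are the members, Atrx, up to 4 of the largest calls each way per list whose higher group averages log2 RPKM 2 or more (any tested gene in lists of at most 15), the 3 most alike genes and the nearest tested neighbours.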

Additional observations from a re-analysis of the deposited data

How the results depend on the processing

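Idh1, Idh2 and Idh3a kept their direction and their call under every alternative run, with log2 differences of -2.70 to -2.44 for Idh1, 1.05 to 1.27 for Idh2 and -0.88 to -0.67 for Idh3a. Idh3b changed sign and was called lower with quantile normalization (-0.22) and with the reads in the table as library size (-0.18), and Idh3g was called lower under both (-0.25 and -0.23). The cause was not tested, apart from the shift of -0.20 in the median of all genes that the reads in the table bring, which left 4388 genes higher and 6689 lower (39.6% higher among those called, against 48.7% under the deposited scaling). Leaving out 1 library at a time gave 10645 to 10947 called genes, 0.0026 to 0.0343 for Idh3b and -0.0729 to 0.0053 for Idh3g, whose sign turned without ATRX WT replicate 3, with no call (limma adjusted p = 0.92). The difference in the log2 ratio of Idh1 to Idh2 was -3.67 with 1 added to each RPKM. Replicate numbers are shared by the groups, but deviations of same-numbered libraries correlated at -0.19, 0.24 and -0.13, so the numbers were not taken to pair them. With the replicate number as a block 10851 genes were called, the log2 difference of Idh1 was -2.51 (limma adjusted p = 1e-09), and no member changed its call. The planned edgeR and DESeq2 tests were not run, because the deposited unit is log2 RPKM. limma with voom weights on the recovered reads, chosen after seeing the data, called 11006 genes. Reads limit precision most for Idh1 in ATRX KO, with 822 reads in the smallest library.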

Other observations

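Other enzymes that exist as a cytosolic and a mitochondrial form were set beside Idh1 and Idh2. These pairs were chosen after their values were seen and carry no test. The log2 level of the cytosolic minus the mitochondrial gene was -3.10 ± 0.08 in ATRX KO and 0.67 ± 0.05 in ATRX WT for Idh1 and Idh2 (SD, n = 3 each), a difference of -3.76. For the malate dehydrogenases Mdh1 and Mdh2 that difference was -0.98, and for the malic enzymes Me1 and Me2 it was -0.60. The aspartate aminotransferases Got1 and Got2 stood apart from the rest, with a difference of 1.01. In levels, Mdh1 had 79.3 RPKM in ATRX KO and 191 RPKM in ATRX WT, and Mdh2 had 309 RPKM in ATRX KO and 377 RPKM in ATRX WT. Got1 had 107 RPKM in ATRX KO and 34.0 RPKM in ATRX WT, and Got2 had 81.3 RPKM in ATRX KO and 52.0 RPKM in ATRX WT.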
